A study of Mus musculus with 9 samples.

Results

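The 10 genes described here sense bacterial and viral products at the cell surface and in endosomes: the Toll-like receptors Tlr1, Tlr2, Tlr3, Tlr4, Tlr5 and Tlr7, the lipopolysaccharide-transfer genes Cd14, Ly96 and Lbp, and the adaptor Myd88. They were taken by gene symbol from the 24453 genes of an RNA sequencing table of mouse liver cells, and all 10 were present and had enough reads to be tested. The table held 3 libraries of hepatic stellate cells (HSCs), the pericytes that store vitamin A in the healthy liver, from wild-type livers. It also held 3 libraries of fibroblasts from livers injured with carbon tetrachloride (CCl4-fib) and 3 of fibroblasts from livers with non-alcoholic steatohepatitis (NASH-fib).

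The labels give C57BL/6J as the strain throughout. CCl4-fib came from mice with green fluorescent protein under the collagen α2(I) promoter (Col1a2-GFP Tg) that were injected with CCl4 2 times per week for 8 weeks. Age and sex are given for the NASH model only. NASH-fib came from male MC4R-KO mice, which lack the melanocortin 4 receptor and become obese, crossed with the same Col1a2-GFP Tg line and fed a Western diet for 20 weeks from 8 weeks of age. Genotype, diet and toxin therefore differed together between both fibroblast groups and cannot be told apart. Fibroblasts were sorted as CD45-, GFP+ cells, a gate meant to select cells in which this collagen promoter was active. HSCs were obtained on a density gradient without a sort, so the way of isolation differed between HSCs and fibroblasts as well. Each library was made from the pooled cells of 3 to 5 mice.

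Endotoxin, the lipopolysaccharide of Gram-negative bacteria, reaches the liver from the gut through the portal vein. LBP extracts it from aggregates and hands it to CD14, which passes it to the complex of TLR4 and MD-2, the product of Ly96. The receptor then signals through MyD88, which serves all Toll-like receptors except TLR3 and also the interleukin-1 receptors, to NF-kB and its target genes. TLR2 pairs with TLR1 to bind bacterial lipoproteins, TLR5 binds flagellin, and TLR3 and TLR7 bind double-stranded and single-stranded RNA in endosomes. Kupffer cells, the macrophages of the liver, express most of these genes, hepatocytes secrete LBP, and TLR4 on HSCs is known for lowering Bambi, a decoy receptor that limits TGF-β signalling.

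Values are gene counts rescaled to give all libraries an equal total. The libraries held between 3071070 and 5634273 reads on genes, and 3 reads corresponded to a value of 2.38 to 4.37, below which a level cannot be told from 0 at this depth. Markers of the labelled cell types were present. The summed value of 10 markers of quiescent stellate cells was 34516 to 39478 in HSCs, against 4315 to 5404 in CCl4-fib and 2592 to 6220 in NASH-fib, and that of 8 markers of activated fibroblasts was 6764 to 12067, 50998 to 57347 and 29058 to 33282 in the same order. Other cell types differed between the groups too. The sum of 14 macrophage markers was 5512 to 18717 in HSCs, 484.2 to 962.8 in CCl4-fib and 3093 to 6925 in NASH-fib, and that of 12 hepatocyte markers was 26765 to 48652, 2818 to 4488 and 9603 to 34926. The sum of 10 sinusoidal endothelial markers was 13094 to 20854 in HSCs, 294.8 to 363.2 in CCl4-fib and 1341 to 4769 in NASH-fib. In these bulk libraries, fewer cells of a type and less RNA per cell cannot be told apart. NASH-fib replicate 1 stood apart from its group. The chi-square statistic per gene between its reads and those of HSC replicate 2, which has the same prefix in its library description, was 64.9. With NASH-fib replicates 2 and 3 it was 99.6 and 81.8. This statistic grows with read depth, and HSC replicate 2 held 3071070 reads, against 5021156 and 4550212 in NASH-fib replicates 2 and 3. For NASH-fib replicate 1, the correlation of values across genes was 0.915 with HSC replicate 2 and 0.919 and 0.931 with its own group. Among the 10 genes, fits without this library are named below for Lbp and Ly96 against HSCs and for Myd88 against CCl4-fib. Other results of NASH-fib include it unless stated.

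The RefSeq promoter table (GRCm38.p6, 250 bases before to 50 after the transcript start) held an entry for 5 of the 10 genes, Tlr1, Tlr2, Tlr3, Tlr5 and Myd88. Those of Tlr1, Tlr3, Tlr5 and Myd88 are shown because these genes differed in CCl4-fib below, in different directions, and that of Tlr2 because it holds the most NF-kB matches of the 5. Capitals mark matches to the NF-kB motif in Tlr2 and Tlr3 and, in Myd88, a joined match to the STAT motif TTCNNNGAA and the interferon-response motif GAAANNGAAA, which overlap.
Tlr1, chr5:64933509-64933808, minus strand: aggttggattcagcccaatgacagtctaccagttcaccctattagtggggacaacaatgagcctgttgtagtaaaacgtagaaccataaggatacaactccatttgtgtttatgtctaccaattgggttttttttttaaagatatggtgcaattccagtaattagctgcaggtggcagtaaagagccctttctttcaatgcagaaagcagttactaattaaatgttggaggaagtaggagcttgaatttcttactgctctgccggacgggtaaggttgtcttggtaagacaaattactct
Tlr2, chr3:83841559-83841858, minus strand: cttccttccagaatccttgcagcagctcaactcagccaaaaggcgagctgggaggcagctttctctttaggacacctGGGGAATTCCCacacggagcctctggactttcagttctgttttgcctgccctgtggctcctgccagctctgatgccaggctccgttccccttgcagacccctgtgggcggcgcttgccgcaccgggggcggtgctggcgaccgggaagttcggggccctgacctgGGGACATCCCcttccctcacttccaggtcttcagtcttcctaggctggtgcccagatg
Tlr3, chr8:45410331-45410630, minus strand: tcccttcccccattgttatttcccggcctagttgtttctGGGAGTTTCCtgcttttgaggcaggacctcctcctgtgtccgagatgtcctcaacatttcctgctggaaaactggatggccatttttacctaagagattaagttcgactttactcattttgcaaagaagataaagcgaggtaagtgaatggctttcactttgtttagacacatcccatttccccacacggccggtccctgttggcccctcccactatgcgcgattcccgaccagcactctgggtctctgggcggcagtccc
Tlr5, chr1:182954538-182954837, plus strand: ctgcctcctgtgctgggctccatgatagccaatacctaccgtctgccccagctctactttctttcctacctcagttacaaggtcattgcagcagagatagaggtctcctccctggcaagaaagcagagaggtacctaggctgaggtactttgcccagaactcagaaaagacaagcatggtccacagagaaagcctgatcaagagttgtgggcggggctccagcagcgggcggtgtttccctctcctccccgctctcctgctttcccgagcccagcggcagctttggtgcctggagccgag
Myd88, chr9:119339969-119340268, minus strand: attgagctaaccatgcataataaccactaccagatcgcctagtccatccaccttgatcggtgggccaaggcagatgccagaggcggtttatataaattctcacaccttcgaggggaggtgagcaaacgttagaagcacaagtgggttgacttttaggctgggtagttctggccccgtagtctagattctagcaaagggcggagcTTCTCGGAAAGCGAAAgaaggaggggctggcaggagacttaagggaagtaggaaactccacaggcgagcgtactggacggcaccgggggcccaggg

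Both strands were searched. Tlr2 held NF-kB matches at 173, 172 and 8 bases before the start, the first 2 of which overlap in 1 stretch, and Tlr3 held 1 at 211 bases before it. In Myd88 the STAT match began 46 bases and the interferon-response match 40 bases before the start. Tlr1 and Tlr5 held none of these motifs and none of the 5 windows held the AP-1 motif TGANTCA. Among all 32851 promoters of the table, 8.46% held the NF-kB motif, 8.3% the STAT motif, 3.44% the interferon-response motif and 7.81% the AP-1 motif. The window of Tlr3 is centred on a start 159 bases from that of the transcript in the deposited table, and that of Myd88 on a start 22 bases away.

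Levels of different genes were compared per length, as reads scaled to gene length and library depth (RPKM). In HSCs Ly96 had the highest level of the 10 genes, at 120 ± 39.8 RPKM (SD, n = 3), followed by Myd88 at 17.0 ± 3.13, Tlr4 at 16.4 ± 2.95 and Tlr3 at 16.0 ± 6.79 RPKM, which did not differ from each other beyond their spread. Cd14, Lbp and Tlr2 came next in HSCs at means of 7.38, 6.98 and 5.51 RPKM, and Tlr1, Tlr7 and Tlr5 were lowest at 1.61, 1.20 and 0.502 RPKM. The order was different in CCl4-fib. There Cd14 had the highest mean, 118 ± 29.3 RPKM. Lbp at 74.0 ± 20.9, Ly96 at 68.2 ± 25.9 and Myd88 at 48.8 ± 20.3 RPKM followed, with ranges that overlap. The range of Cd14, 84.5 to 140 RPKM, also overlapped those of Lbp and Ly96, which reached 95.3 and 92.4 RPKM. Tlr4 stood at 11.4 ± 2.34 RPKM. In NASH-fib Lbp and Ly96 led at 60.8 ± 44.5 and 55.3 ± 30.0 RPKM, and Tlr4, Cd14, Myd88 and Tlr3 followed at means between 10.5 and 15.6 RPKM. A mean of 118 RPKM placed Cd14 at the 96.0 percentile of all genes of the table in CCl4-fib, whereas its mean in HSCs was at the 71.6 percentile.

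**Figure D1:**
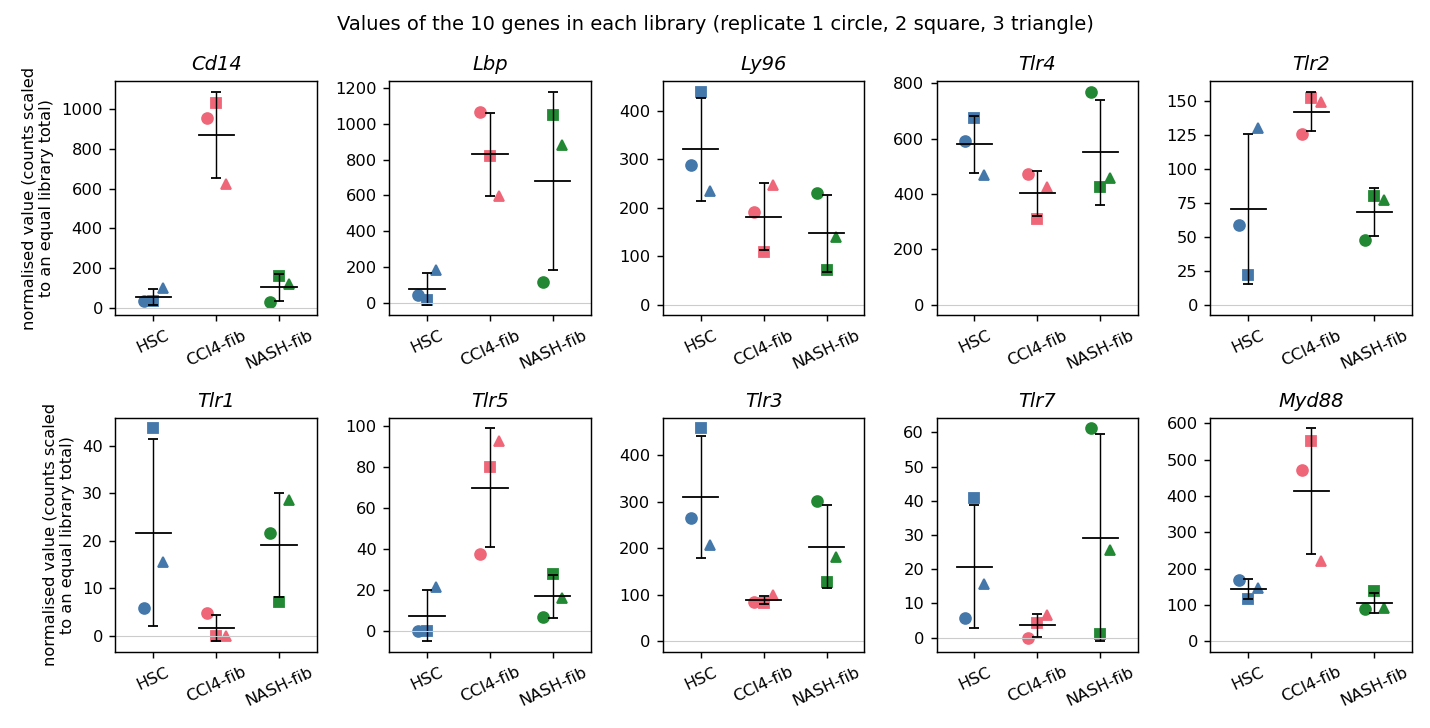
Value of each of the 10 genes in each of the 9 libraries, by group (counts scaled to an equal library total, linear axes that differ between panels). Points are libraries, horizontal bars are group means and error bars are SDs of 3 libraries. Cd14 and Myd88 lie above the other groups in all 3 CCl4-fib libraries, and Lbp is low in NASH-fib replicate 1, next to the HSC libraries.

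To ask which of these genes differed between healthy HSCs and the fibroblasts of CCl4-injured livers, CCl4-fib were compared with HSCs. Of the 10 genes, 4 were higher (Cd14, Lbp, Tlr5 and Myd88) and 2 lower (Tlr1 and Tlr3) by limma on log2(value + 1), with a change of at least 1 on the log2 scale in either direction and a p under 0.05 after Benjamini-Hochberg adjustment over the 13651 genes tested. Among all genes tested in this comparison 16.2% were called higher and 11.7% lower. The median log2 fold change was 0.41 over the 10 genes and 0.18 over all genes.

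Cd14, the glycolipid-anchored co-receptor for lipopolysaccharide, showed the lowest adjusted p of the 10. Its value was 31.56, 32.04 and 100.43 in HSC replicates 1 to 3, and 957.22, 1034.21 and 625.86 in CCl4-fib replicates 1 to 3. The lowest CCl4-fib library lay above the highest HSC library, as for 27.8% of all genes tested, while 20.9% lay wholly below, and the group means of 54.7 ± 39.6 and 872 ± 217 (SD, n = 3) differed 16.0-fold. The log2 fold change of Cd14 was 4.16 ± 0.67 (SE), a limma adjusted p of 0.00132, with a 95% interval of 6.36- to 50.2-fold. It was called in all 21 alternative settings that gave it a value, with log2 fold changes from 3.72 to 4.70. Macrophages are the cells best known for CD14, and the summed macrophage markers, given above, were lower in all CCl4-fib libraries than in any HSC library, with 11 of the 14 called lower and none higher, and 1 or 2 of the 14 were at 0 in each CCl4-fib library. Among them Clec4f, a Kupffer cell lectin, was at 0 to 26.37 in CCl4-fib against 592.66 to 4479.71 in HSCs, and Ptprc, which encodes CD45, at 8.73 to 25.52 against 88.84 to 314.53. Their part in the level of Cd14 was not tested.

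Lbp, the secreted transfer protein, was at 39.75, 14.56 and 180.53 in the HSC libraries and at 1068.34, 822.44 and 599.15 in CCl4-fib. These groups did not overlap. The means of 78.3 ± 89.4 and 830.0 ± 235 (SD, n = 3) differed 10.6-fold, and the log2 fold change was 4.05 ± 0.95 (SE, limma adjusted p = 0.00997). Hepatocyte markers went the other way, with 9 of 12 called lower and none higher in CCl4-fib, and albumin (Alb) at 617 to 829 against 9062 to 14161 in HSCs. Markers of mesothelial cells, the lining of the liver capsule, rose with Lbp. Their sum was 554.8 to 774.7 in HSCs and 11287 to 17784 in CCl4-fib, all 5 being called higher, and the part of these cells in the level of Lbp was not tested.

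Myd88 was at 169.5, 116.49 and 145.86 in HSCs and at 470.67, 551.13 and 220.39 in CCl4-fib. All CCl4-fib libraries lay above all HSC libraries, although replicate 3 was nearer to them than to the other CCl4-fib libraries. The log2 fold change of Myd88 was 1.43 ± 0.42 (SE, limma adjusted p = 0.0294), or 1.41- to 5.16-fold. The call was lost without CCl4-fib replicate 1 (limma adjusted p = 0.109) or 2 (0.13), and without HSC replicate 1 (0.0536), 2 (0.0829) or 3 (0.0529), with log2 fold changes of 1.17 to 1.56. Myd88 shares 290 exon bases with Acaa1a, a peroxisomal thiolase gene on the opposite strand, and reads of both strands were counted. Acaa1a was at 119 ± 74.1 in HSCs and 165 ± 19.9 in CCl4-fib (SD, n = 3; limma adjusted p = 0.325).

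Tlr5, the flagellin receptor, was read in 1 of 3 HSC libraries, at 0, 0 and 21.52, and in all CCl4-fib libraries, at 37.3, 79.95 and 92.54. The groups did not overlap, and the group means of 7.17 and 69.9 differed 9.75-fold. On the log2 scale the fitted difference was 4.55 ± 1.12 (SE, limma adjusted p = 0.0127), a value that depends on the pseudocount since 2 HSC libraries had 0 reads. By edgeR's quasi-likelihood test on the recovered reads it was 3.12 with an adjusted p of 0.0671, and without HSC replicate 1 the limma adjusted p was 0.0524 at 3.80. Markers of cholangiocytes, the bile duct epithelium, summed to 63.1 to 225.7 in HSCs and 3479 to 4753 in CCl4-fib. Of the 5 tested, 4 passed as higher in that comparison, and Epcam, at 0.85 to 7.94 in CCl4-fib, did not (limma adjusted p = 0.323). The sum in NASH-fib was 5971 to 11605, most of it Spp1 at 4847 to 10729, and Tlr5 there was at 6.8 to 27.61, below every CCl4-fib library. Single markers differed in direction between the fibroblast groups. Krt19 was at 770.88 to 2698.65 in CCl4-fib and 53.02 to 469.36 in NASH-fib, and Krt7 at 241.29 to 363.5 and 176.72 to 355.36. Spp1, Epcam and Sox9 had higher means in NASH-fib. The part of these cells in the level of Tlr5 was not tested.

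The receptors that fell in CCl4-fib, Tlr3 and Tlr1, did so beside markers of several cell types. All 10 sinusoidal endothelial markers and 11 of 14 macrophage markers were called lower in CCl4-fib than in HSCs. So were 9 of 12 hepatocyte markers and 7 of 10 markers of quiescent stellate cells. The part of these cells in the levels of Tlr3 and Tlr1 was not tested. Tlr3, which binds double-stranded RNA and uses TRIF in place of MyD88, was at 264.19, 457.24 and 206.83 in HSCs and at 84.93, 81.65 and 99.22 in CCl4-fib. The CCl4-fib libraries were close to each other and all below the lowest HSC library. The log2 fold change of Tlr3 was -1.72 ± 0.43 (SE, limma adjusted p = 0.0143), a 3.49-fold lower mean. Without CCl4-fib replicate 1 or 2 or HSC replicate 2 the limma adjusted p was 0.0501, 0.0558 and 0.0511, the last at a log2 fold change of -1.39. Tlr3 shares 381 exon bases with the antisense gene Gm45542, whose reads cannot be told apart from those of Tlr3.

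Tlr1 was at 5.84, 43.69 and 15.54 in HSCs and at 4.76, 0 and 0 in CCl4-fib, where 6 reads were counted in all, against 48 in HSCs. The groups did not overlap, but the highest CCl4-fib library was close to the lowest HSC library. The log2 fold change of Tlr1 was -3.26 ± 0.96 (SE, limma adjusted p = 0.029). The limma adjusted p rose to 0.103 and 0.0915 without CCl4-fib replicates 2 and 3, and to 0.109 and 0.0548 without HSC replicates 2 and 3, and with a pseudocount of 8 the log2 fold change shrank to -1.46. Tlr1 has a close paralog, Tlr6, at 0 to 19.13 in HSCs and 0 to 16.67 in CCl4-fib, and reads that match both may have been split between them.

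The other 4 genes did not pass the test in CCl4-fib. Tlr4, the lipopolysaccharide receptor itself, was at 592.68, 675.66 and 468.65 in HSCs and at 470.67, 310.43 and 424.55 in CCl4-fib, so that the groups overlapped. Its log2 fold change was -0.53 ± 0.35 (SE, limma adjusted p = 0.283), and the 95% interval of 0.403- to 1.19-fold includes both a fall and a small rise. Ly96 was at 287.57, 439.76 and 235.52 in HSCs and at 190.49, 108.86 and 246.15 in CCl4-fib, with a log2 fold change of -0.84 (limma adjusted p = 0.231). Tlr2 was at 58.45, 21.84 and 130.31 in HSCs and at 125.41, 152.24 and 148.83 in CCl4-fib, and the highest HSC library overlapped the lowest CCl4-fib library. Its log2 fold change of 1.34 ± 0.59 (SE, limma adjusted p = 0.114) became 1.95 (limma adjusted p = 0.0235) without HSC replicate 3. Tlr7 was at 5.84, 40.77 and 15.54 in HSCs and at 0, 4.25 and 6.68 in CCl4-fib, with a log2 fold change of -2.29 ± 1.29 (SE, limma adjusted p = 0.211). It was read 12 times in all in CCl4-fib and 46 times in HSCs.

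**Figure D2:**
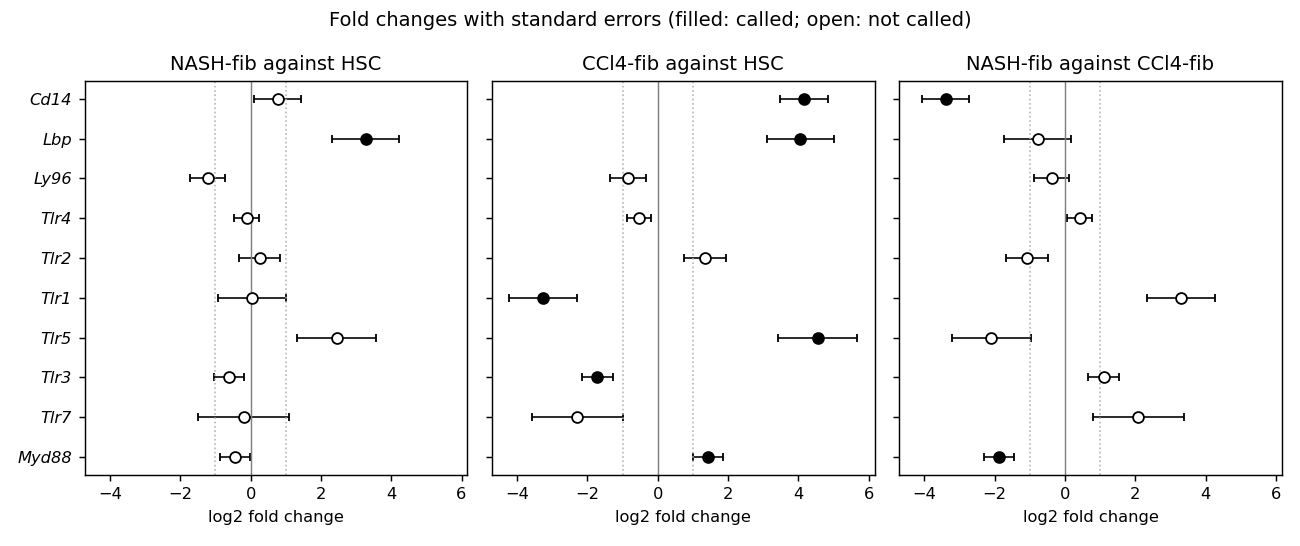
Log2 fold change of each of the 10 genes in the 3 comparisons, with bars of 1 SE; filled points were called (past the dotted lines at 1 and -1, with a limma adjusted p under 0.05) and open points were not. Cd14 is filled in both panels that involve CCl4-fib, at 4.16 and -3.39, and Lbp is the only filled point between NASH-fib and HSCs, at 3.28.

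Next, NASH-fib were compared with HSCs. Lbp was the only one of the 10 genes called, as higher, and none was lower by limma, against 8.23% of all genes called higher and 4.3% called lower. The median log2 fold change was -0.04 over the 10 genes and -0.02 over all genes tested. Lbp was at 112.83, 1048.27 and 884.53 in NASH-fib replicates 1 to 3. Replicates 2 and 3 were at the level of CCl4-fib, whereas replicate 1 lay within the range of the HSC libraries, so that the groups overlapped. The log2 fold change of Lbp was 3.28 ± 0.95 (SE, limma adjusted p = 0.0476) with a 95% interval of 2.25- to 41.9-fold.

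That call of Lbp held in 7 of 21 alternative settings, over which the adjusted p ran from 0.00201 to 0.212. Without NASH-fib replicate 1 the log2 fold change rose to 4.31, and without HSC replicate 2 it was 2.46 (limma adjusted p = 0.139). Its adjusted p was also above 0.05 without HSC replicate 1 (0.141), NASH-fib replicate 2 (0.159) or 3 (0.165), and without CCl4-fib replicate 1 (0.071), 2 (0.0735) or 3 (0.0717), by limma. The summed hepatocyte markers were 34926 in NASH-fib replicate 1, the library with the lowest Lbp, and 9603 and 33418 in replicates 2 and 3. Mesothelial markers summed to 22875, 20545 and 25871 in the same libraries, but single markers did not move together. Msln, Upk3b and Krt8 were lowest in replicate 1, at 933.89, 141.37 and 73.41, with highs in the group of 10679, 965.44 and 203.44. Gpm6a and Wt1 were highest in replicate 1, at 21261 and 466.26. The part of hepatocytes and mesothelial cells in the level of Lbp was not tested.

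Cd14 was at 27.19, 157.64 and 119.9 in NASH-fib, with replicate 1 below every HSC library and the other two above them. Its log2 fold change against HSCs was 0.77 ± 0.67 (SE, limma adjusted p = 0.61). Over 21 alternative settings this log2 fold change ran from 0.29 to 1.54, and Cd14 was called in 0 of them. Tlr5 was at 6.8, 27.61 and 15.72 in NASH-fib, on both sides of the 1 HSC library in which it was read, with a log2 fold change of 2.46 (limma adjusted p = 0.229) that became 3.96 (limma adjusted p = 0.0091) without HSC replicate 3. Ly96 was at 231.09, 72.14 and 138.58, below all HSC libraries, the only one of the 10 genes without overlap in this comparison, in which 11.6% of all genes tested lay wholly below and 12.7% wholly above HSCs. Its log2 fold change was -1.22 ± 0.50 (SE, limma adjusted p = 0.167), and without NASH-fib replicate 1 it was -1.62 (limma adjusted p = 0.0485).

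Tlr4 was at 769.4, 426.61 and 456.02 in NASH-fib, on both sides of the HSC libraries. With a log2 fold change of -0.11 ± 0.35 (SE, limma adjusted p = 0.931), its 95% interval of 0.541- to 1.59-fold was the narrowest of the 10 genes in this comparison. Tlr3 was at 300.42, 126.47 and 181.82 in NASH-fib and Myd88 at 89.72, 138.05 and 91.4, with log2 fold changes against HSCs of -0.62 (limma adjusted p = 0.494) and -0.45 (limma adjusted p = 0.647). Tlr2 was at 47.58, 80.16 and 76.66, within the range of HSCs, and Tlr1 at 21.75, 7.13 and 28.5, also within it. Tlr7 was at 61.17, 0.89 and 25.55, a spread in NASH-fib wider than any difference between its group means. The intervals of the 3 latter genes were 0.487- to 2.95-fold, 0.235- to 4.47-fold and 0.119- to 6.34-fold.

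CCl4-fib and NASH-fib, both sorted as CD45-, GFP+ cells, were then compared with each other. Markers of other cells differed between them as well. Ptprc was at 62.34 to 319.45 in NASH-fib (log2 fold change against CCl4-fib 3.30, limma adjusted p = 0.0233), and 9 of 10 endothelial, 6 of 12 hepatocyte, 4 of 7 neutrophil and 3 of 5 lymphocyte and dendritic cell markers tested were called higher in NASH-fib. Their part in the differences below was not tested. Cd14 and Myd88 were lower in NASH-fib, and none of the 10 genes was called higher, against 4.97% of all genes called higher and 5.66% called lower. The median log2 fold change was -0.58 over the 10 genes and -0.11 over all genes. Cd14 differed by -3.39 ± 0.67 (log2, SE, limma adjusted p = 0.0162), the mean in NASH-fib of 102 ± 67.1 (SD, n = 3) being 8.59-fold lower than in CCl4-fib. All NASH-fib libraries lay below the lowest CCl4-fib library. The limma adjusted p was 0.0566 without CCl4-fib replicate 1 and 0.0767 without CCl4-fib replicate 2, at log2 fold changes of -3.31 and -3.25. Of the 14 macrophage markers, 6 were called higher in NASH-fib than in CCl4-fib.

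Myd88 differed by -1.88 ± 0.42 (log2, SE, limma adjusted p = 0.0234), with all NASH-fib libraries below all CCl4-fib libraries and a mean of 106 ± 27.4 against 414 ± 172 (SD, n = 3). This call was lost without CCl4-fib replicate 1 (limma adjusted p = 0.0869) or 2 (0.114) and without NASH-fib replicate 1 (0.0532) or 3 (0.0803), the log2 fold change staying between -2.28 and -1.62 over the 9 libraries left out. Acaa1a, which shares 290 exon bases with Myd88, was at 65.85 to 70.69 in NASH-fib and 148.42 to 186.99 in CCl4-fib. Its log2 fold change was -1.245 (limma adjusted p = 0.131), and reads on the shared bases cannot be told apart. Tlr5 and Tlr2 were lower in every NASH-fib library than in any CCl4-fib library, at log2 fold changes of -2.09 (limma adjusted p = 0.245) and -1.08 (limma adjusted p = 0.25), and did not pass the test.

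Tlr1 and Tlr3 were higher in every NASH-fib library than in any CCl4-fib library. Their log2 fold changes were 3.30 (limma adjusted p = 0.053) and 1.10 (limma adjusted p = 0.127). Tlr1 was called in 6 of 20 alternative settings and Tlr3 in 1 of 21. Across all genes tested, 17.1% lay higher in every NASH-fib library than in any CCl4-fib library and 22% lower, so that groups without overlap were common in this comparison. For Tlr7, Tlr4, Ly96 and Lbp the libraries overlapped, and the log2 fold changes were 2.09, 0.42, -0.38 and -0.77 (limma adjusted p = 0.312, 0.453, 0.641 and 0.616).

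**Figure D3:**
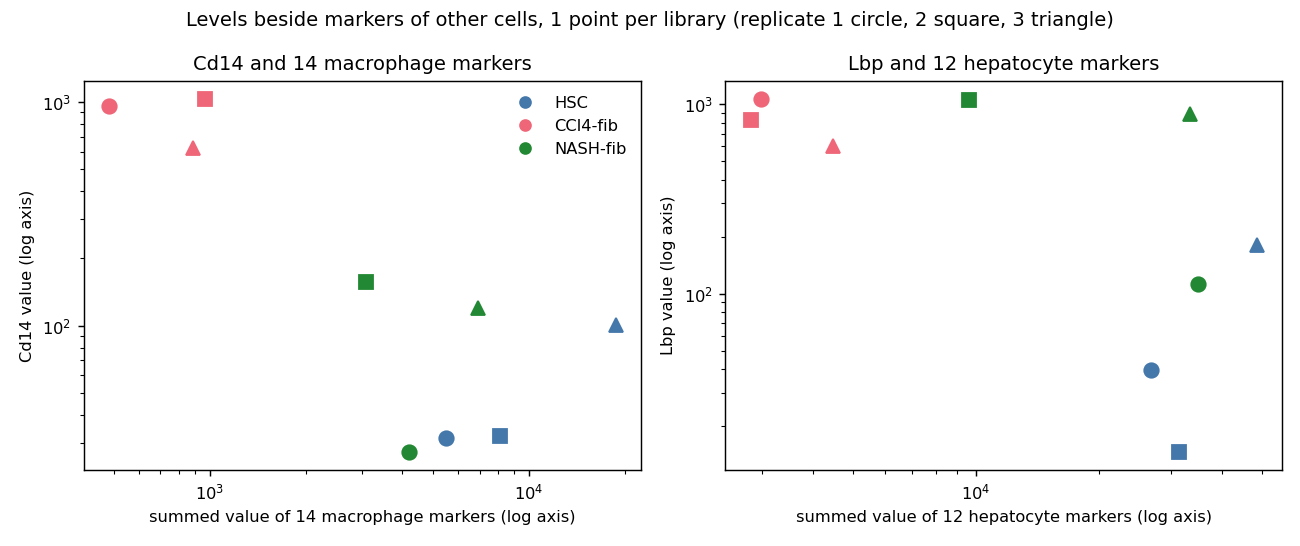
Value of Cd14 against the summed value of 14 macrophage markers (left) and of Lbp against that of 12 hepatocyte markers (right), both on log axes, with 1 point per library coloured by group. The 3 CCl4-fib libraries have the highest Cd14, 625.86 to 1034.21, and the lowest macrophage sums, 484.2 to 962.8, and they have the lowest hepatocyte sums, 2818 to 4488, while their Lbp is at 599.15 to 1068.34.

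The rest of the pathway was followed in 8 lists of 114 genes, 102 of which were tested. CCl4-fib had 27 of them higher and 18 lower than HSCs by the same test, NASH-fib had 9 higher and 4 lower than HSCs, and 12 were higher and 16 lower in NASH-fib than in CCl4-fib. As shares of the 102 genes these were 26.5% and 17.6%, 8.82% and 3.92%, and 11.8% and 15.7%, beside 16.2% and 11.7%, 8.23% and 4.3%, and 4.97% and 5.66% of all genes tested. The medians of the log2 fold changes of the 102 genes were 0.00, -0.20 and -0.29, beside 0.18, -0.02 and -0.11 over all genes. The counts of the single lists below, which are short, stand beside the same shares of all genes tested.

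Among the remaining Toll-like receptors and their partners, 3 of 6 tested were lower in CCl4-fib than in HSCs and none was higher. These were Ly86, the partner of the receptor homologue Cd180, at a log2 fold change of -5.23, Tlr12 at -3.80 and Tlr8 at -3.42 (limma adjusted p = 9.41e-05, 0.0104 and 0.0354). Ly86 was at 251.33 to 559.52 in HSCs, 4.76 to 14.31 in CCl4-fib and 124.69 to 294.84 in NASH-fib. It was the only gene of this list called between both fibroblast groups (log2 fold change 4.17, limma adjusted p = 0.00562). The summed macrophage markers and the summed sinusoidal endothelial markers had the same order of groups. Single macrophage markers did not all share it, Ptprc, Itgam and Lyz2 having higher means in NASH-fib than in HSCs. None of the list was called between NASH-fib and HSCs. Tlr9, the receptor for unmethylated DNA, had 3 reads in 1 HSC library and 0 in all others.

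Of 7 tested genes that bind or degrade lipopolysaccharide by other routes, 6 were called lower in CCl4-fib than in HSCs and none higher. The largest changes were those of the scavenger receptors Marco (log2 fold change -5.90, limma adjusted p = 0.00586) and Msr1 (-5.30, 0.00365), of the integrin subunit Itgb2 (-3.15, 0.00933) and of Aoah (-2.82, 0.0302), the enzyme that deacylates lipopolysaccharide. Marco and Itgam are also on the list of macrophage markers. In NASH-fib against CCl4-fib 4 of the 7 were higher, Msr1 by 3.83, Itgam by 2.93, Itgb2 by 2.71 and Cd36 by 2.64 (log2, limma adjusted p = 0.0413, 0.0222, 0.0414 and 0.0465), and Marco was the only one called between NASH-fib and HSCs (-5.17, limma adjusted p = 0.0201). Itgam shares 3450 exon bases on its own strand with the annotated gene Gm49368, so that its reads are uncertain.

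Of 21 tested adaptors and kinases, 2 were higher and 2 lower in CCl4-fib than in HSCs, and none was called between NASH-fib and HSCs. These counts were no larger than the shares of all genes, 16.2% called higher and 11.7% lower in CCl4-fib. Ticam1, which encodes TRIF, the adaptor of TLR3, was higher by 1.90 (log2, limma adjusted p = 0.0422), with 18.93 to 78.91 in HSCs and 161.12 to 227.94 in CCl4-fib, while its receptor Tlr3 was lower. The kinase genes Chuk (IKKα) and Map3k7 (TAK1) were lower by -1.74 and -1.08 (log2, limma adjusted p = 0.0212 and 0.0353). In NASH-fib Chuk was higher than in CCl4-fib by 1.87 and Tirap, the bridge between TLR4 and MyD88, lower by -1.37 (log2, limma adjusted p = 0.0338 and 0.0363). Ube2v1 was called too (3.24 in CCl4-fib against HSCs, limma adjusted p = 0.0145, and -3.12 in NASH-fib against CCl4-fib, limma adjusted p = 0.038), but it shares 1673 exon bases with Gm20431 on the same strand.

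Among 10 genes of receptor folding and trafficking, Rab7b, a small GTPase of late endosomes that promotes the degradation of TLR4, was higher in both fibroblast groups. It was at 33.49 to 87.27 in HSCs, 417.6 to 480.2 in CCl4-fib and 312.65 to 664.38 in NASH-fib, with log2 fold changes of 3.05 and 3.00 against HSCs (limma adjusted p = 0.000629 and 0.00111). Cnpy3, a chaperone of Toll-like receptors, was higher in CCl4-fib by 1.19 (log2, limma adjusted p = 0.0439). None of the 10 was called between the fibroblast groups.

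Of 10 transcription factors, Nfkb2 and Irf5 were higher in CCl4-fib than in HSCs by 1.98 and 1.20 and Irf8, a factor of myeloid cells, was lower by -3.49 (log2, limma adjusted p = 0.0384, 0.0464 and 0.00187). Irf5 shares 411 exon bases with Tnpo3 and Nfkb2 shares 299 with Psd, both on the opposite strand. Since reads of both strands were counted, those of each pair cannot be told apart there. In NASH-fib Irf7, the interferon factor downstream of TLR7, was at 6.8 to 42.75, below 148.53 to 302.47 in HSCs and 88.73 to 292.88 in CCl4-fib. Its log2 fold changes were -3.10 and -2.98 (limma adjusted p = 0.0163 and 0.029). Rela, the p65 subunit of NF-kB, was lower in NASH-fib than in CCl4-fib by -2.12 (log2, limma adjusted p = 0.0471).

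Target genes of NF-kB and of Toll-like receptor signalling were the list with the most calls. In CCl4-fib 11 of 16 tested were higher than in HSCs and 1 was lower, with a median log2 fold change of 3.27. The neutrophil chemokine Cxcl5 was at 5.82 to 27.5 in HSCs and 2068 to 4243 in CCl4-fib (log2 fold change 7.70, limma adjusted p = 1.5e-05), and the acute-phase genes Saa3 and Lcn2 and the cyclooxygenase gene Ptgs2 were higher by 6.85, 6.55 and 6.64 (log2, limma adjusted p = 0.000265, 0.00681 and 9.21e-05). The gene called lower was Il1b, a cytokine of myeloid cells, at 80.09 to 274.98 in HSCs, 0 to 11.06 in CCl4-fib and 93.52 to 241.77 in NASH-fib.

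In NASH-fib 4 of the 16 were higher than in HSCs and none was lower. They were Ptgs2 (log2 fold change 7.21), Il6 (3.65), Nfkbiz (3.14), an atypical inhibitor that co-activates Il6, and the monocyte chemokine Ccl7 (1.52), with limma adjusted p = 8.97e-05, 0.0103, 0.000289 and 0.0187. In CCl4-fib, compared with the same HSC libraries, their log2 fold changes were 6.64, 4.47, 2.62 and 3.93 (limma adjusted p = 9.21e-05, 0.00196, 0.00055 and 5.69e-05). Between the fibroblast groups 7 were lower in NASH-fib, led by Cxcl5 (-6.21), Saa3 (-5.17), Cxcl1 (-3.67) and Cxcl2 (-3.46), and Il1b was higher (5.41), with limma adjusted p = 0.002, 0.01, 0.0156, 0.02 and 0.00875. Cxcl1 was at 14.03 to 152.9 in HSCs, 88.45 to 134.49 in NASH-fib and 1071 to 1818 in CCl4-fib.

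**Figure D4:**
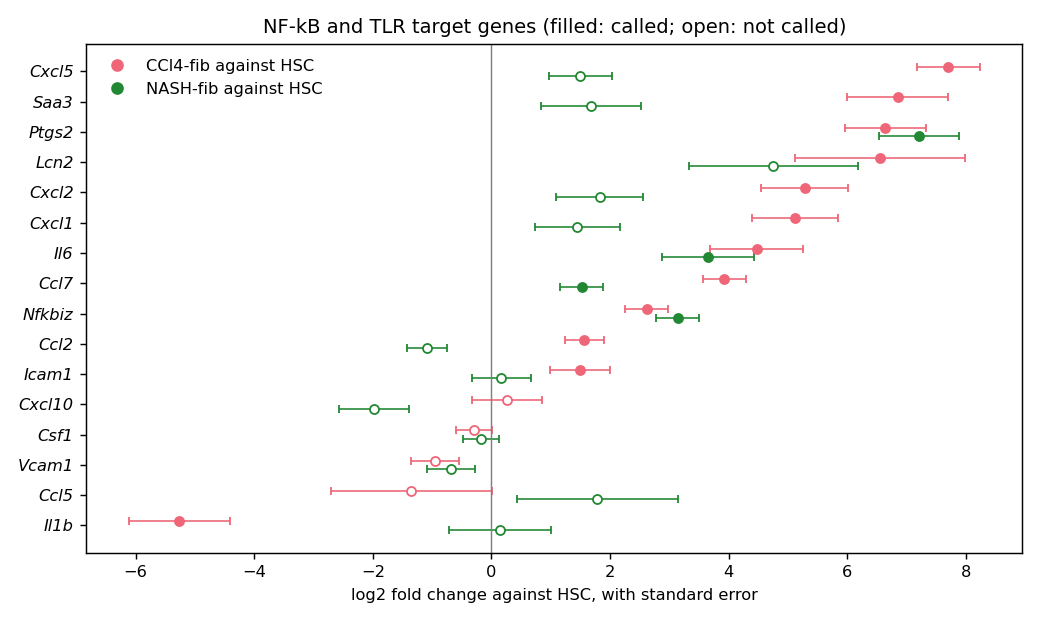
Log2 fold change against HSCs of the 16 tested target genes of NF-kB and Toll-like receptor signalling in CCl4-fib (red) and NASH-fib (green), with bars of 1 SE; filled points were called and open points were not. The CCl4-fib points lie right of the NASH-fib points for most chemokines, as for Cxcl5 (7.70), while Ptgs2, Il6, Ccl7 and Nfkbiz are filled in both; both comparisons use the same HSC libraries.

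Negative regulators of the pathway were among the genes that rose in CCl4-fib, with 6 of 18 tested called higher and 2 lower. Tnip3, an inhibitor that binds A20, was at 0 to 2.39 in HSCs and 26.99 to 34.87 in CCl4-fib (log2 fold change 4.38, limma adjusted p = 0.00828), and Atf3, a repressor induced by Toll-like receptors, Nlrc3 and Zfp36, which destabilises cytokine mRNA, were higher by 3.50, 3.05 and 2.84 (log2, limma adjusted p = 0.00727, 0.0477 and 0.00122). In NASH-fib Atf3 and Dusp1, a phosphatase of MAP kinases, were higher by 4.05 and 1.50 and Nfkbie lower by -1.45 (log2, limma adjusted p = 0.00556, 0.0115 and 0.0483). Nlrc3, Zfp36 and Tnfaip3, which encodes A20, were lower in NASH-fib than in CCl4-fib by -4.18, -2.06 and -1.74 (log2, limma adjusted p = 0.0304, 0.0222 and 0.0222).

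Bambi was lower in both fibroblast groups. It was at 320.36 to 358.88 in HSCs, 120.64 to 144.59 in CCl4-fib and 51.11 to 112.22 in NASH-fib, so that no group overlapped another. The log2 fold changes against HSCs were -1.32 and -1.99 (limma adjusted p = 0.0276 and 0.00586), and the fibroblast groups were not called apart. Tlr4 itself, as given above, was not called in any of the 3 comparisons.

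Of 14 genes for endogenous ligands of TLR2 and TLR4, the matrix genes Vcan, Tnc and Fn1 and the chaperone gene Hspa1a were higher in CCl4-fib than in HSCs by 5.79, 3.38, 2.47 and 2.91 (log2, limma adjusted p = 9.43e-05, 0.000537, 0.000261 and 0.00914). The fibrinogen genes Fgb, Fgg and Fga, products of hepatocytes, were lower by -4.41, -4.38 and -4.25 (log2, limma adjusted p = 0.00135, 0.00144 and 0.00245), and Fgb is also on the hepatocyte list. Vcan and Hspa1a were higher in NASH-fib as well, by 4.15 and 2.54 (log2, limma adjusted p = 0.00105 and 0.0309). Against CCl4-fib, NASH-fib had higher S100a8 and S100a9 (6.00 and 5.71, limma adjusted p = 0.0138 and 0.0371), which are abundant in neutrophils and stand on the neutrophil list, whose sum was 5.6 to 78.2 in CCl4-fib and 610.4 to 6471 in NASH-fib. Fgb, Fgg and Fga were higher there too (3.45, 3.44 and 3.42, limma adjusted p = 0.0185, 0.0192 and 0.0234), beside the hepatocyte markers, whose part was not tested. Fn1 and Tnc were lower there by -2.37 and -2.32 (log2, limma adjusted p = 0.00562 and 0.0171).

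To describe which genes had profiles most like those of the 10 genes, the correlation of log2(value + 1) over the 9 libraries was computed with all other genes tested. These correlations follow the group differences, rest on the same 9 libraries and are the highest of 13650, so they are given as a description. Cd14 was most like Bre, Pla2g15 and Timm17b (Pearson's r = 0.993, 0.993 and 0.992), Lbp most like Atp6v0e2, Gas6 and Dync2li1 (0.99, 0.99 and 0.989), and Myd88 most like Gcn1l1, Tspo and Rnf41 (0.987, 0.984 and 0.983). For the receptors the nearest profiles were those of Fam47e for Tlr1 (0.982), Sox12 for Tlr2 (0.981), Atg9b for Tlr3 (0.983), Efcab7 for Tlr4 (0.985), Tec for Tlr5 (0.977) and Guf1 for Tlr7 (0.954), and Ly96 had the lowest maximum (Cd200r3, 0.932). Among all pairs of the 10 genes, the correlation largest in size was that of Tlr3 and Cd14, at r = -0.953 over the 9 libraries. Other pairs came close, such as Tlr5 and Lbp (0.893) and Tlr3 and Lbp (-0.889), and these values follow the group differences too.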

How the data were processed

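RNA of 9 libraries (3 per group, each a pool of 3 to 5 mice) was SMARTer-amplified and sequenced single-end. The authors aligned the reads to mm10 with STAR and counted them on RefSeq exons with HOMER, on both strands and with at most 3 reads per position, per the file header. The deposited values are a signal, that is, gene counts scaled by 1 factor per library over 10 libraries, of which the tenth is not analysed here; 0 columns were left unused. Divided by what 1 read is worth in its library, 100% of the values came out whole, to within 0.0051 plus 1e-05 times the value. RPKM was computed from these reads and the lengths in the table.

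The values being no longer raw counts, limma 3.58.1 in R 4.3.3 was applied to log2(value + 1), with 1 fit over 3 groups and a prior spread that follows the mean, to genes kept by filterByExpr (minimum count 10) of edgeR 4.0.16. Fold changes are on the log2(value + 1) scale and depend, for low genes, on the pseudocount. Benjamini-Hochberg adjustment ran over all genes tested. Alternatives were edgeR's quasi-likelihood test and DESeq2 1.42.0 on the recovered reads, other scalings, pseudocounts, filters, priors and samples, the replicate number or the prefix of the library description as a term, and each library left out. P-values measure the spread between pools of mice, and nothing states whether pools were processed separately. An exact permutation test of 3 against 3 libraries cannot give a p under 0.1 and was not used.

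The 10 genes and all lists were chosen with earlier results of these data known, and the lists were written by hand. The genes named are the 10, at most the 4 largest called genes per list, comparison and direction, the 3 nearest profiles of each of the 10, and markers. Levels given outside these, as of Acaa1a, Tlr6 and Tlr9, were chosen after their values were seen. Fold changes of Fga in NASH-fib against CCl4-fib, and of Il6, Nfkbiz and Ccl7 in CCl4-fib against HSCs, were also given beyond the limit of 4. Gene models came from GENCODE M21 and promoters from RefSeq. Other named list genes share exon bases with a gene on the opposite strand, whose reads were counted too. They include Hspa1a (564 bases), Tirap (446 with Gm39318 and 39 with Srpr), Fn1 (292), Tnc (176), Zfp36 (125), Fgg (115) and Il1b (25).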

Additional observations from a re-analysis of the deposited data

How the results depend on the processing

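The call of Cd14 in CCl4-fib against HSCs held in all 21 alternatives, that of Lbp there in 20, of Tlr5 in 18, of Tlr3 in 17, of Myd88 in 14 and of Tlr1 in 13 of 20. Between the fibroblast groups Cd14 held in 18 and Myd88 in 15 of 21. No called log2 fold change of the 10 genes changed sign in any alternative.

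The number of the 10 genes called in NASH-fib against HSCs was 1, and 0 with a pseudocount of 0.5, no filter, an average RPKM over 1, one prior for all genes, only 2 groups in the fit, the replicate block or the label prefix as a term; it ran from 0 to 2 with single libraries left out. In CCl4-fib against HSCs it was 6, 2 with no filter and 3 to 6 with libraries left out. In NASH-fib against CCl4-fib it was 2, 4 by DESeq2, 0 with no filter, 1 with the label prefix and 0 to 3 with libraries left out. With an average RPKM over 100, the limit that the methods name, none of the 10 genes was left to test.

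Of the list genes, 9 were called higher in NASH-fib against HSCs, 5 with the label prefix and 1 with an average RPKM over 100, and 7 to 12 with libraries left out; 4 were lower, 2 by edgeR or with 2 groups, 9 by DESeq2, 0 with the prefix or the RPKM limit of 100, and 2 to 6 with libraries left out. In CCl4-fib against HSCs the 27 higher and 18 lower became 7 and 2 with that limit, and 20 to 31 and 12 to 20 with libraries left out. In NASH-fib against CCl4-fib the 12 higher became 2 with no filter, 4 with the limit, 5 with the prefix and 2 to 13 with libraries left out, and the 16 lower became 7, 6, 10 and 5 to 16. The low ends came without CCl4-fib replicate 2 (2 higher, 5 lower) and NASH-fib replicate 3 (2 higher, 6 lower).

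Log2 fold changes that were not called and turned sign were, in NASH-fib against HSCs, Tlr1 (-0.10 by edgeR, -0.11 by DESeq2, -0.01 with a pseudocount of 8, -0.59 with the prefix, -0.63 to 0.73 with libraries left out), Tlr4 (0.02 by edgeR, 0.03 by DESeq2, -0.38 to 0.05), Tlr7 (0.62 by edgeR, 0.64 by DESeq2, 0 with TMM, 0.13 with a pseudocount of 8, -1.24 to 1.28), Myd88 (0.14 with the prefix) and Tlr2 (-0.39 to 0.87), and in NASH-fib against CCl4-fib Lbp (-1.35 to 0.25) and Ly96 (-0.78 to 0.06).

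With libraries scaled to an equal total, the median log2 fold change of all genes was 0.18 in CCl4-fib against HSCs and -0.11 in NASH-fib against CCl4-fib, and by edgeR 0.00 and 0.14. The 678 higher and 773 lower genes of the latter comparison became 802 and 563 by edgeR and 1518 and 1161 by DESeq2, and 140 and 72 without CCl4-fib replicate 2. Same-numbered libraries did not deviate together more than others (correlations of -0.473 to 0.514 over 9 pairs, and -0.588 to 0.645 over 18 other pairs). With deviations from means of 3 libraries, this cannot exclude a pairing by number. The highest value, 0.645, was that of HSC replicate 2 and NASH-fib replicate 1, which share a description prefix. In the replicate block 0, 5 and 2 of the 10 genes were called in NASH-fib against HSCs, CCl4-fib against HSCs and NASH-fib against CCl4-fib. Tlr1, Tlr5 and Tlr7 each had under 60 reads in at least 2 groups, which limits the precision of their fold changes. The causes of these changes were not tested.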

Other observations

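The interleukin-1 receptor family signals through the same adaptor, Myd88, and its genes were looked at after the other results of these data were known, as a description. Of 8 genes, 6 were tested. Il18r1, the ligand-binding chain of the interleukin-18 receptor, was at 8.74 to 17.93 in HSCs, 325.42 to 386.13 in CCl4-fib and 658 to 1173 in NASH-fib, with log2 fold changes against HSCs of 4.60 and 5.91 (limma adjusted p = 3.81e-05 and 1.59e-05). Its partner Il18rap had 0 reads in all HSC libraries and at most 21 in any fibroblast library. The decoy receptor gene Il1r2 and Il1rl2, the receptor chain for interleukin-36, were higher in CCl4-fib than in HSCs by 3.86 and 3.26 (log2, limma adjusted p = 0.00695 and 0.00708). Il1rn, the receptor antagonist, was at 0 to 7.63 in CCl4-fib and 58.45 to 194.6 in NASH-fib (log2 fold change 4.57, limma adjusted p = 0.0208). Il1r1, the signalling receptor, was at 1401 to 2585 in HSCs, 2688 to 4776 in CCl4-fib and 1073 to 2394 in NASH-fib and was not called in any comparison.

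Of 8 genes of cytosolic sensing of bacterial products and of the inflammasome, chosen in the same way, 7 were tested. Pycard, the adaptor ASC, and Gsdmd, the pore-forming gasdermin D, were higher in CCl4-fib than in HSCs by 1.62 and 2.42 (log2, limma adjusted p = 0.00713 and 0.00533) and lower in NASH-fib than in CCl4-fib by -2.29 and -2.36 (log2, limma adjusted p = 0.00863 and 0.0206). Pycard was at 295.13 to 330.18 in CCl4-fib, 87.37 to 127.42 in HSCs and 55.22 to 84.28 in NASH-fib, so that no group overlapped another. Nod1, which senses bacterial peptidoglycan, was lower in NASH-fib than in CCl4-fib by -1.34 (log2, limma adjusted p = 0.0486). Casp4, the caspase that binds intracellular lipopolysaccharide, was at 154.23 to 337.83 in HSCs, 404 to 497.06 in CCl4-fib and 350.02 to 712.31 in NASH-fib, with log2 fold changes against HSCs of 1.01 and 1.05 (limma adjusted p = 0.0851 and 0.133). Nlrp3 had at most 7 reads in any library.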
